A study of Mus musculus with 6 samples.

Results

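The CYP2B enzymes are heme-containing monooxygenases of the endoplasmic reticulum that oxidize drugs, steroids and fatty acids, and their nuclear receptors are CAR, encoded by Nr1i3, and PXR, encoded by Nr1i2. The group examined in mouse liver comprised the genes Cyp2b9, Cyp2b10, Cyp2b13, Cyp2b19 and Cyp2b23, both receptor genes, and Por, which encodes the reductase that passes electrons to every microsomal P450. Of these 8 genes, 7 had a probe set to which the array annotation gave exactly 1 gene symbol, among 19938 genes named in this way. Each of the 7 genes had 1 such probe set. The signal of Por was not analysed here, and only its promoter window was searched.

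Hepatic RNA was measured in 3 ARSB-null and 3 control mice, with 1 array for each mouse. The ARSB-null mice were homozygous for a disrupted Arsb gene, which encodes arylsulfatase B, the lysosomal enzyme that removes sulfate from chondroitin 4-sulfate and dermatan sulfate. The controls were unmodified C57BL/6J mice, and all 6 animals were untreated C57BL/6J males of 12 weeks. The null mice came from a homozygous colony, and the controls are not described as littermates, so the genotype and the colony cannot be told apart. Both groups carry the mouse numbers 4, 5 and 6.

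CAR and PXR form heterodimers with the retinoid X receptor and bind pairs of a hexamer half-site in the regulatory DNA of their targets. Phenobarbital activates CAR, and Cyp2b10 is the classic CAR target of the mouse liver. Cyp2b9 and Cyp2b13 are known as female-predominant genes that the continuous growth hormone of females favors and the pulsatile growth hormone of males represses. Cyp2b19 is known mainly from the epidermis, and the function of Cyp2b23 is less well described. The members were selected on values of this same contrast, so their differences are given as a description. Where p-values of the members are printed below, nothing is read from them.

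Cyp2b9 was higher and Cyp2b10 was lower in ARSB-null liver, with no overlap between the groups for either gene. Cyp2b23 and Nr1i3 were moderately higher in every null liver. The livers of the groups overlapped for Cyp2b13, Cyp2b19 and Nr1i2. The signal of Arsb itself, read as a check of the labels, had log2 values of 7.63, 7.46 and 7.64 in ARSB-null mice and 10.21, 10.23 and 10.21 in control mice, a 6.23-fold lower level in null liver (limma adjusted p = 0.000639).

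Both arrays numbered 4 stood apart from the other 4. Their values correlated with those of the other arrays at 0.976 to 0.988 over all probe sets, while the arrays numbered 5 and 6 correlated with each other at 0.989 to 0.993. Hepatocyte markers averaged 13.66 to 13.77 in null livers and 13.63 to 13.72 in control livers over the 10 of 12 listed genes that were measured, and the 8 keratinocyte markers averaged 5.99 to 6.22 in null livers and 6.01 to 6.17 in control livers. Xist lay between 4.55 and 4.63 in null livers and between 4.35 and 4.55 in control livers, and the Y-linked Eif2s3y lay between 8.84 and 9.38 in null livers and between 9.07 and 9.42 in control livers, as the male label requires. Because whole hepatic tissue was measured, a change in the number of cells of a type and a change in RNA per cell cannot be told apart. The number of arrays limits the precision of every value.

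The 5 Cyp2b genes lie in 1 cluster of Cyp2 genes on chromosome 7. In the RefSeq order, Cyp2b10 comes first of the 5, followed by Cyp2b13, Cyp2b9, Cyp2b23 and Cyp2b19, with Cyp2b pseudogenes on either side of Cyp2b13 and Cyp2a4 between Cyp2b9 and Cyp2b23. The sequences just before the annotated start are shown for the gene with the largest positive difference, its nearest copy, the lower gene and the third gene with a difference, since they show how alike the family members are. They are RefSeq sequences of build GRCm38.p6, and the capitals mark the half-site AGGTCA of nuclear receptors, searched on both strands.
Cyp2b9, chr7:26173159-26173349, plus strand: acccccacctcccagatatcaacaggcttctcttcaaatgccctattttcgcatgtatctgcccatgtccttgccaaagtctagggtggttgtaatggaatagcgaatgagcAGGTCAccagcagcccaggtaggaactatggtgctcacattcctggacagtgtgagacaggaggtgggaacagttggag
Cyp2b13, chr7:26061245-26061387, plus strand: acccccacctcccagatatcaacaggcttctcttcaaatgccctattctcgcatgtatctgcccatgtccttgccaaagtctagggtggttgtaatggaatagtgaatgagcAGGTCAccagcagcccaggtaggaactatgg
Cyp2b10, chr7:25897408-25897657, plus strand: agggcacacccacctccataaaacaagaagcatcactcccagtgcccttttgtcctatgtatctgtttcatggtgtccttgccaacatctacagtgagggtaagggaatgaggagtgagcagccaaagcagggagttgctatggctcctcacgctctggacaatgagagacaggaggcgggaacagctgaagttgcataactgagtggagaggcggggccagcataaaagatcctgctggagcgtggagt
Cyp2b23, chr7:26686431-26686680, minus strand: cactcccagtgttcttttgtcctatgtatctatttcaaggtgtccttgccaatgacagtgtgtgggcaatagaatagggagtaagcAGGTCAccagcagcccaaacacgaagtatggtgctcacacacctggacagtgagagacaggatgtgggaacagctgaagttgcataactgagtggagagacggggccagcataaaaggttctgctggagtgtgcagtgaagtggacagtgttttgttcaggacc
The full windows of 300 bases of Cyp2b9 and Cyp2b13, from which these stretches were taken, were identical at 298 positions, or 99.33%. The remaining positions were T48C and C104T, counted from 1 at the start of the window, with the base of Cyp2b9 first and both positions within the printed stretches. The windows of Cyp2b9 and Cyp2b10 were identical at 71.7% of aligned positions, and the other pairs at 59.83 to 71.7%.

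AGGTCA was found in the windows of Cyp2b9, Cyp2b13, Cyp2b19 and Cyp2b23, which are 4 of the 8 genes, and 16.3% of 32851 promoter windows of the same length held it. The half-site had the same neighboring bases in all 4 windows, so the 4 matches are not independent and nothing is read from their number. TTCNNNGAA, the motif of STAT5, was found in 0 of the 8 windows and in 8.3% of all windows. TGTTTAC, a forkhead motif, was found in 0 of the 8 windows and in 3.65% of all windows. Cyp2b9 and Cyp2b13 therefore share their half-site and nearly all of the surrounding bases. The phenobarbital-responsive enhancer of Cyp2b10 is known to lie further upstream than these windows reach. Genes this alike can share probe targets, and cross-hybridization between the Cyp2b probe sets was not tested.

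Cyp2b9 had log2 signals of 8.40, 10.59 and 11.87 in ARSB-null mice 4, 5 and 6, and 6.33, 6.85 and 6.62 in control mice 4, 5 and 6. All null livers were above all control livers, and the lowest null liver exceeded the highest control liver by 1.55. The mean was 10.29 ± 1.75 in ARSB-null liver and 6.60 ± 0.26 in control liver (SD, n = 3 each), a difference of 3.69 on the log2 scale with a standard error of 0.78, or 12.9-fold. No other of the 19938 named genes had a larger positive difference. The spread within the null group was itself wide, since the highest null liver exceeded the lowest 11.0-fold, while the control livers spanned 0.52 on the log2 scale.

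Cyp2b10 had log2 signals of 6.49, 7.49 and 7.98 in ARSB-null mice 4, 5 and 6, and 9.63, 9.80 and 9.38 in control mice 4, 5 and 6. Every null liver was below every control liver, and the closest livers were 1.40 apart. The means were 7.32 ± 0.76 in ARSB-null liver and 9.60 ± 0.21 in control liver (SD, n = 3 each). The difference was -2.28 (SE 0.36), a 4.86-fold lower level in ARSB-null liver. Among the named genes, 6 had a more negative difference. The null livers with the least Cyp2b9 and the least Cyp2b10 were the same animal, mouse 4, and null mouse 6 was highest for both genes.

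**Figure D1:**
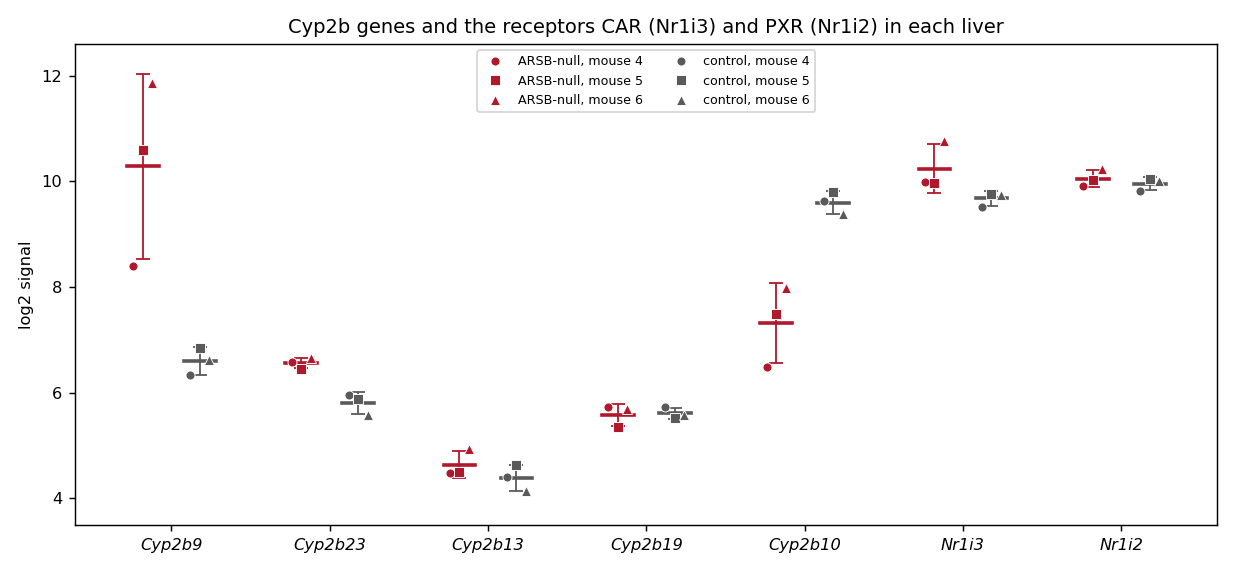
Log2 signal (vertical axis) of the 7 measured genes in each liver, with ARSB-null livers in red at the left and control livers in gray at the right of each gene. Symbols give the mouse number, horizontal bars the group mean and whiskers the SD (n = 3); the null livers spread from 8.40 to 11.87 for Cyp2b9, and the groups are separate for Cyp2b9, Cyp2b23, Cyp2b10 and Nr1i3.

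Cyp2b23 was measured at 6.59, 6.46 and 6.65 in ARSB-null mice and at 5.96, 5.89 and 5.57 in control mice. The null livers lay close together, within 0.19, and all above the controls. The means were 6.57 ± 0.10 in null liver and 5.81 ± 0.21 in control liver, a difference of 0.76 (SE 0.13) or 1.69-fold. Larger positive differences were present in 35 named genes.

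Cyp2b13, the near copy of Cyp2b9, had signals of 4.49, 4.49 and 4.93 in null livers and 4.42, 4.63 and 4.13 in control livers. These values lay below the array medians of 6.50 to 6.60, and only 13.7% of probe sets had a lower mean. The groups overlapped, and the difference was 0.25 (SE 0.18). There are no detection calls, so it is not known whether the probe set of Cyp2b13 was above its background.

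Cyp2b19 was measured at 5.72, 5.35 and 5.69 in null livers and at 5.72, 5.52 and 5.59 in control livers, with a difference of -0.02 (SE 0.13). The groups overlapped. Of the 5 enzymes of the family, 2 had higher signal in every null liver, 1 had lower signal in every null liver and 2 were without separation. Among all named genes, 4.73% were higher and 8.32% lower in every null liver, and the enzymes were selected on this contrast.

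Nr1i3, the gene of CAR, had signals of 9.98, 9.97 and 10.77 in null livers and 9.52, 9.76 and 9.75 in control livers. The groups were separate by 0.20, and null mouse 6 stood above the remaining null livers. The mean was 10.24 ± 0.46 in null liver and 9.68 ± 0.14 in control liver, with a difference of 0.56 (SE 0.23) or 1.48-fold. Without null mouse 6 the difference was 0.30. Larger positive differences were found for 77 named genes.

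Nr1i2, the gene of PXR, was measured at 9.91, 10.02 and 10.23 in null livers and at 9.81, 10.04 and 10.01 in control livers. The livers overlapped, and the difference was 0.10 (SE 0.12). Without null mouse 6 it was 0.0089. ARSB-null mouse 6 had the highest signal of the null livers for 6 of the 7 genes, against 26.4% of all named genes, with Cyp2b19 as the exception.

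Set against the control of the same number, Cyp2b9 differed by 2.07, 3.74 and 5.25 for mice 4, 5 and 6. The corresponding differences of Cyp2b10 were -3.14, -2.31 and -1.40. The pair in which Cyp2b9 differed least was the pair in which Cyp2b10 differed most. Differences of Nr1i3 were 0.46, 0.20 and 1.02, and those of Cyp2b23 were 0.63, 0.57 and 1.07. These genes also kept 1 direction in all pairs, as separate groups require.

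**Figure D2:**
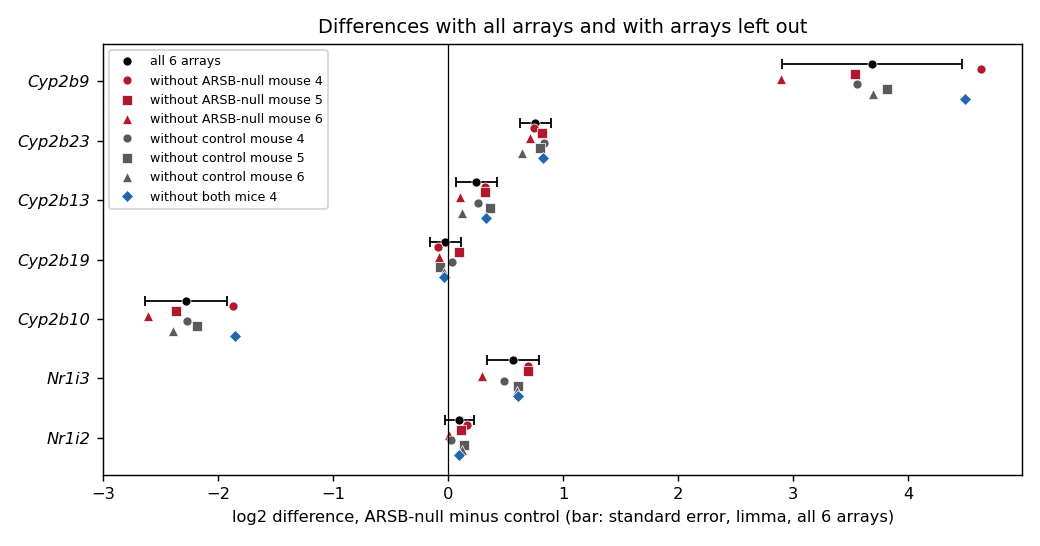
Log2 difference, ARSB-null minus control (horizontal axis), of the 7 genes with all 6 arrays (black, with the standard error from limma), with 1 array left out (red and gray) and with both mice numbered 4 left out (blue). Cyp2b9 stays between 2.90 and 4.63 and Cyp2b10 between -2.61 and -1.85, while Cyp2b19 lies on both sides of 0.

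Leaving out null mouse 4 gave a Cyp2b9 difference of 4.63, and leaving out null mouse 6 gave 2.90. With both mice numbered 4 left out, the differences were 4.50 for Cyp2b9, -1.85 for Cyp2b10, 0.82 for Cyp2b23 and 0.61 for Nr1i3. A gene with separate groups cannot change direction when arrays are left out. Cyp2b13 differed by 0.10 without null mouse 6 and by 0.12 without control mouse 6.

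In the fit over all 35556 probe sets, 0 of the 7 genes passed limma's adjusted p of 0.05, where 0.0197% of all probe sets passed. At an unadjusted p under 0.05, 4 of the 7 genes passed, beside 5.94% of probe sets; these were Cyp2b9, Cyp2b23 and Nr1i3 as higher and Cyp2b10 as lower. By one-way analysis of variance, 0 genes passed the adjusted threshold and 3 the unadjusted one. When the 21789 probe sets with 1 symbol alone were tested, Cyp2b10 passed (limma adjusted p = 0.022), beside 0.275% of those probe sets. With the mouse number as a block in that smaller table, Cyp2b9 (limma adjusted p = 0.024), Cyp2b10 (0.017) and Cyp2b23 (0.047) passed, beside 0.486%. Separate groups were found for 4.73% of named genes with all null livers higher and 8.32% with all null livers lower, and for 3 and 1 of the 7 genes. Because the genes were selected on this contrast, nothing is read from these counts and p-values.

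None of the other listed targets of CAR and PXR that were measured differed by as much as Cyp2b10, and their differences lay on both sides of 0. Of 40 listed genes, 32 were measured and 0 passed the adjusted threshold (smallest limma adjusted p = 0.568). At the unadjusted threshold 3 were lower and 4 higher, beside 5.94% of all probe sets in both directions. The median difference was 0.03, beside -0.016 over all named genes. Slco1a4, an organic anion transporter, was at 10.31, 10.61 and 10.61 in null livers and 10.12, 10.05 and 10.01 in control livers, a difference of 0.45 (SE 0.12). Ugt2b34, a glucuronosyltransferase, was at 12.68, 12.82 and 12.61 in null livers and 13.08, 12.99 and 13.00 in control livers, a difference of -0.32 (SE 0.10). These genes lay on opposite sides, as Cyp2b9 and Cyp2b10 did, but at far smaller sizes.

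Within the CYP2C family, Cyp2c54 differed by 0.32 (SE 0.11) and Cyp2c55, with overlapping groups, by -0.73 (SE 0.27). In all, the null livers lay above the controls for 4 of the 32 targets and below them for 1, Ugt2b34. The shares over all named genes were 4.73% and 8.32%. Besides Slco1a4 and Cyp2c54, the higher genes were Gadd45b, a stress-response gene that CAR activators induce, with 0.57 (SE 0.22), and Cyp2c37 with 0.28 (SE 0.11), both named after their values were seen. Cyp3a11, the classic PXR target, and Cyp2c29, a CAR target, were likewise chosen afterwards. Cyp3a11 was at 12.59, 12.93 and 12.94 in null livers and 12.44, 12.96 and 12.95 in control livers, and Cyp2c29 differed by 0.03 (SE 0.11). The livers of the groups overlapped for both genes. Without null mouse 4, 9 of the 32 targets lay above the controls, beside 9.81% of named genes, and without control mouse 4, 7 lay below, beside 15.9%. The count below was also 5 without null mouse 6 (beside 12.0% of named genes) and 4 without null mouse 5 (15.0%). The same count was 2 without control mouse 5 (12.2%) and 2 without control mouse 6 (13.1%).

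Partners and regulators of the receptors showed small differences. Of 32 listed genes, 28 were measured, 0 passed at either threshold (smallest limma adjusted p = 0.843), and the median difference was -0.04. Ppargc1a, a coactivator of CAR and PXR, was at 8.86, 9.02 and 9.43 in null livers and 8.35, 8.73 and 8.88 in control livers, a difference of 0.45 (SE 0.20). Ncoa1, another coactivator, differed by -0.18 (SE 0.09), the glucocorticoid receptor gene Nr3c1 by -0.17 (SE 0.09) and the forkhead factor Foxa1 by -0.27 (SE 0.15). All null livers were below the controls for 4 of the 28 genes and above for 0, beside 8.32% and 4.73% of named genes. The 4 were Ncoa1, Nr3c1, the bile acid receptor gene Nr1h4 and the retinoid X receptor gene Rxrg. Nr1h4 and Rxrg were named after their values were seen. This count was 8 without null mouse 5 (beside 15.0% of named genes), 7 without null mouse 6 (12.0%) and 7 without control mouse 4 (15.9%), and 5 genes lay above without null mouse 4 (9.81%).

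Of 19 genes for electron transfer and heme supply to P450 enzymes, 18 were measured and 0 passed the adjusted threshold (smallest limma adjusted p = 0.670), with a median of -0.06. Hmox1, the inducible heme oxygenase that degrades heme, was at 8.84, 8.91 and 8.98 in null livers and 8.51, 8.68 and 8.56 in control livers, a difference of 0.33 (SE 0.10). Slc25a38, a mitochondrial glycine carrier of heme synthesis, differed by -0.29 (SE 0.12), Uros, a synthesis enzyme, by -0.25 (SE 0.11) and Cyb5b, a cytochrome b5, by -0.20 (SE 0.12). Groups were separate for Hmox1 as the 1 higher gene, and for 3 lower genes, beside 4.73% and 8.32% of named genes. The lower genes were Slc25a38, Uros and, named after its values were seen, the heme-binding Pgrmc1. Without control mouse 4 the lower genes were 8, beside 15.9% of named genes, and without null mouse 5 they were 5, beside 15.0%.

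The measured neighbors of the Cyp2b genes in the cluster differed by -0.30 to 0.54, less than Cyp2b9 or Cyp2b10. Of 8 listed genes, 6 were measured and 0 passed the adjusted threshold (smallest limma adjusted p = 0.779). Cyp2f2, a P450 of periportal hepatocytes, was at 13.09, 13.10 and 13.34 in null livers and 13.48, 13.45 and 13.49 in control livers, a difference of -0.30 (SE 0.11). Cyp2a22 was at 5.94, 6.50 and 7.45 in null livers and 6.02, 6.42 and 5.84 in control livers, a difference of 0.54 (SE 0.37). Only null mouse 6 stood above the controls by a wide margin for Cyp2a22. Cyp2g1 and Cyp2s1 differed by 0.06 (SE 0.16) and 0.03 (SE 0.12).

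**Figure D3:**
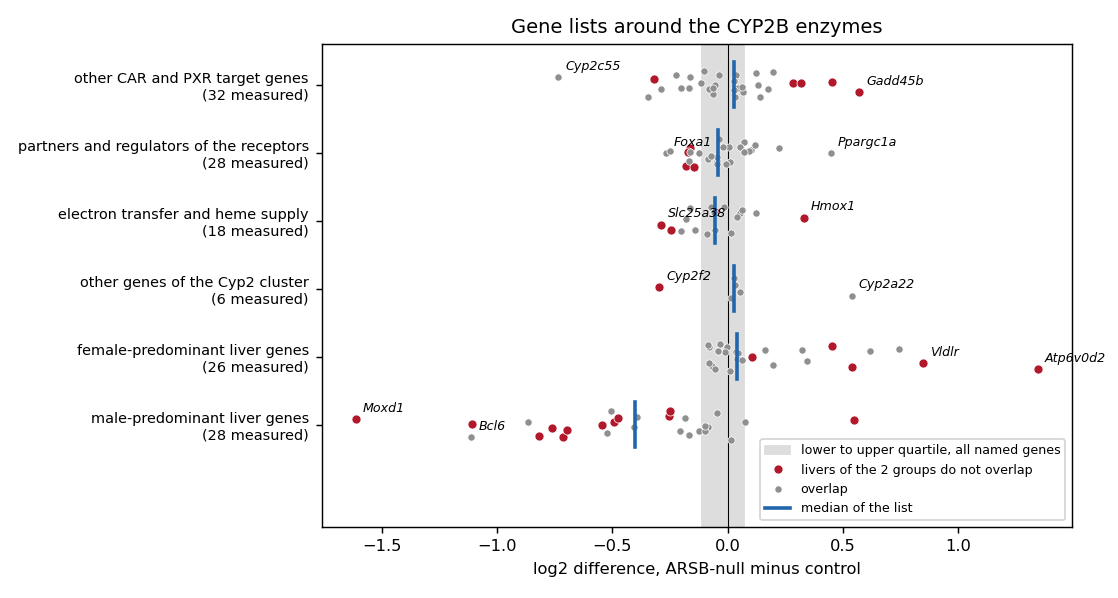
Log2 difference, ARSB-null minus control (horizontal axis), of each measured gene of 6 lists (rows), red where the livers of the groups do not overlap and gray where they do. Blue bars mark list medians, which lie between -0.06 and 0.04 for all lists but the male-predominant genes, at -0.40; the shaded band reaches from the lower to the upper quartile of all named genes.

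Since Cyp2b9 and Cyp2b13 belong to the female-predominant genes of the mouse liver, the sex-biased genes were set beside them. Of 34 listed female-predominant genes other than the Cyp2b members, 26 were measured and 0 passed the adjusted threshold, with a median of 0.04. Vldlr, the very low density lipoprotein receptor, was at 7.14, 7.56 and 7.69 in null livers and 6.66, 6.68 and 6.51 in control livers, a difference of 0.85 (SE 0.16, limma adjusted p = 0.348). Atp6v0d2, a subunit of the vacuolar ATPase, differed by 1.34 (SE 0.37), Tox, a transcription factor, by 0.54 (SE 0.16), and Slco1a4, also counted among the CAR and PXR targets, by 0.45. All null livers were above the controls for 5 of the 26 genes and below for 0, beside 4.73% and 8.32% of named genes. The 5 were the genes just named and Sult3a1, which was seen afterwards. Atp6v0d2 is also a gene of macrophages. Without null mouse 4, 8 of the 26 lay above, beside 9.81% of named genes. The livers of the groups overlapped for the remaining genes.

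Most male-predominant genes had negative differences. Of 34 listed genes, 28 were measured, 25 had a negative difference, and the median was -0.40, beside 45.2% positive differences and a median of -0.016 over all named genes. None of the 28 passed the adjusted threshold in limma (smallest adjusted p = 0.356). At the unadjusted threshold 13 were lower and 1 was higher, beside 5.94% of all probe sets in both directions. Cyp7b1, an oxysterol hydroxylase, was at 10.79, 10.96 and 10.36 in null livers and 12.18, 11.66 and 11.60 in control livers, a difference of -1.11 (SE 0.21). Moxd1, a monooxygenase-like protein, was at 5.37, 5.31 and 5.31 in null livers and 7.58, 7.04 and 6.21 in control livers, a difference of -1.61 (SE 0.32). The groups did not overlap for either gene.

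The fatty acid hydroxylases Cyp4a12b and Cyp4a12a differed by -0.76 (SE 0.15) and -0.82 (SE 0.18). All null livers were below the controls for 11 of the 28 male-predominant genes and above for 1, beside 8.32% and 4.73% of named genes. The higher gene was Ihh, a hedgehog ligand named after its values were seen, with 0.55 (SE 0.13). The count below was 17 without null mouse 5, beside 15.0% of named genes, and 19 without control mouse 4, beside 15.9%. With both mice numbered 4 left out it was 19, beside 21.4%. Null mouse 6, with the highest Cyp2b9, was the lowest null liver for 21 of the 28 genes, against 33.7% of all named genes. It was the highest null liver for 17 of the 26 female-predominant genes, against 26.4%. A like share was seen in lists not chosen by sex, with 19 of the 32 CAR and PXR targets and 18 of the 28 partners and regulators. For electron transfer and heme supply it was 7 of 18.

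**Figure D4:**
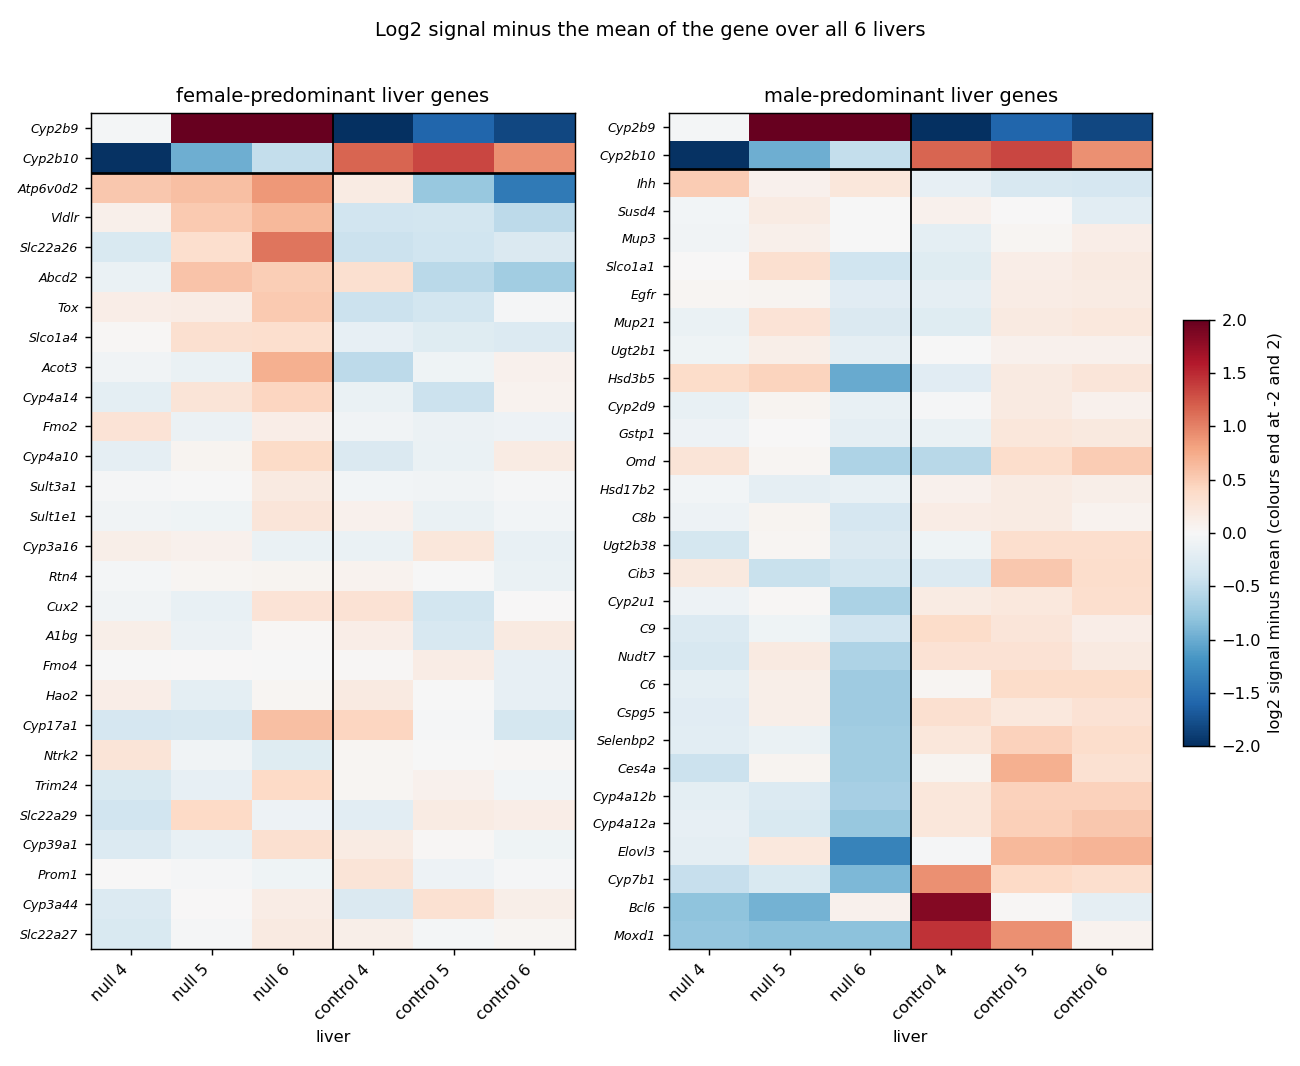
Log2 signal of each gene minus its mean over the 6 livers (color, ending at -2 and 2), with ARSB-null livers at the left and control livers at the right, for female-predominant (left panel) and male-predominant genes (right panel), and with Cyp2b9 and Cyp2b10 above the line in each. Most male-predominant rows are blue in null mouse 6, which was the lowest null liver for 21 of 28. Null mouse 6 was the highest null liver for 17 of 26 female-predominant genes, as for Cyp2b9, a share also seen in lists not chosen by sex.

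Growth hormone signaling genes were all measured, 14 of 14, and 0 passed the adjusted threshold, with a median of -0.05. Socs2, a feedback inhibitor that growth hormone induces, was at 10.98, 10.83 and 10.39 in null livers and 9.73, 9.99 and 9.97 in control livers, a difference of 0.84 (SE 0.17, limma adjusted p = 0.379). Cish, another such inhibitor, differed by 0.55 (SE 0.26), and the transcription factor genes Stat5a and Stat5b by -0.28 (SE 0.12) and 0.18 (SE 0.11). Socs2 and Cish were higher in all null livers than in all control livers, and Stat5a was lower. Groups were thus separate for 2 higher genes and 1 lower gene of the 14, beside 4.73% and 8.32% of named genes. Of the 14 differences, 9 were negative. Null mouse 6 had the least Socs2 of the null livers and the most Cyp2b9.

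Zonal genes were set beside the Cyp2b genes because CYP2B enzymes are found mainly around the central vein. All 15 pericentral genes were measured, with a median of 0.19, and 12 of 15 periportal genes, with a median of -0.13, and 0 of either passed the adjusted threshold in limma (smallest adjusted p = 0.383 and 0.239). Null livers were above the controls for 5 pericentral genes and below for 0, beside 4.73% and 8.32% of named genes. Oat, which encodes ornithine aminotransferase, differed by 0.51 (SE 0.11), and the glutamate transporter gene Slc1a2 by 0.40. Gulo, of vitamin C synthesis, differed by 0.26, and Axin2, a Wnt target with overlapping groups, by 0.41. Besides Oat, Slc1a2 and Gulo, the separate genes were Glul with 0.22 and Cyp2e1 with 0.16, both named after their values were seen. Of the 15 pericentral differences, 12 were positive and 3 negative. The most negative was Slc1a4 with -0.42 (SE 0.17), named after its values were seen. Of the periportal genes, null livers were below the controls for 5 and above for 2. The lower genes included the cadherin gene Cdh1 with -0.63, the protease gene Ctsc with -0.61 and Sox9 with -0.35, beside Cyp2f2. The 2 higher genes were Pck1 and Pigr, each with 0.21, also named after their values were seen. Without null mouse 4, 10 pericentral genes lay above, beside 9.81% of named genes, and without control mouse 5 likewise 10, beside 6.84%. The part of zonation in the Cyp2b differences was not tested.

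The genes most like Cyp2b9 and Cyp2b10 were found by Pearson's r over the 6 livers, among 138 named genes with an SD of at least 0.5 on the log2 scale. These correlations share the difference between the groups and the 6 arrays, and are given as a description. For Cyp2b9 the highest were Vldlr (r = 0.981), Mid1, a ubiquitin ligase of microtubules (0.977), Sytl5, a Rab27 effector (0.972), Slc22a26, an organic anion transporter (0.940), and Lilr4b, a leukocyte receptor (0.935). Vldlr and Slc22a26 also stand on the female-predominant list. Mid1 was at 7.76, 9.27 and 9.84 in null livers and 7.48, 7.50 and 7.40 in control livers. Like Cyp2b9, Mid1 was lowest in mouse 4 and highest in mouse 6 of the null group.

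The lowest were Slc4a1, the anion exchanger of red cells (-0.908), Cyp7b1 (-0.893), Isg20, an exonuclease induced by interferon (-0.887), Ppbp, a platelet chemokine (-0.883), and Slc22a7, an organic anion transporter (-0.876). Slc22a7 was at 7.46, 7.69 and 7.11 in null livers and 8.75, 9.05 and 8.53 in control livers. All 5 were lower in every null liver than in every control liver.

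For Cyp2b10 the highest were Dio1, the type 1 deiodinase of thyroid hormone (r = 0.986), the orosomucoid gene Orm2 (0.971), Rarres1, a retinoic acid-responsive gene (0.965), the serum amyloid gene Saa1 (0.963) and Slc3a1, a subunit of the cystine transporter (0.960). Dio1 was at 8.73, 9.48 and 9.39 in null livers and 10.45, 10.70 and 10.39 in control livers. Of the 5, Orm2 and Saa1 are acute phase genes, a list of which 20 of 20 were measured, with 2 lower at the adjusted threshold, namely Saa2 with -4.10 (SE 0.20, limma adjusted p = 0.0017) and Saa1 with -3.25 (SE 0.22, adjusted p = 0.010). Orm2 and Saa3 differed by -3.05 (SE 0.29) and -1.61 (SE 0.24). Null livers lay below the controls for 10 of the 20 acute phase genes, beside 8.32% of named genes.

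The lowest r with Cyp2b10 belonged to Mmp12, a macrophage elastase (-0.965), Socs2 (-0.965), H2-M2, a nonclassical histocompatibility gene (-0.955), Ms4a7, a membrane protein of macrophages (-0.935), and Gpnmb, a glycoprotein of macrophages and melanocytes (-0.926). Gpnmb was at 8.79, 8.73 and 8.77 in null livers and 5.77, 5.42 and 5.36 in control livers. Beside these, 12 of 12 listed Kupffer cell and macrophage markers were measured, and their mean level ranged over 9.09 to 9.16 in null livers and 9.02 to 9.36 in control livers. Null livers lay above the controls for 2 of these markers and below for 1, beside 4.73% and 8.32% of named genes. Of the 12 differences, 9 were negative, and 0 markers passed the adjusted threshold (smallest limma adjusted p = 0.272). Without control mouse 6, 9 of the 12 markers lay below the controls, beside 13.1% of named genes. The part of other cell types in the Cyp2b10 difference was not tested.

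**Figure D5:**
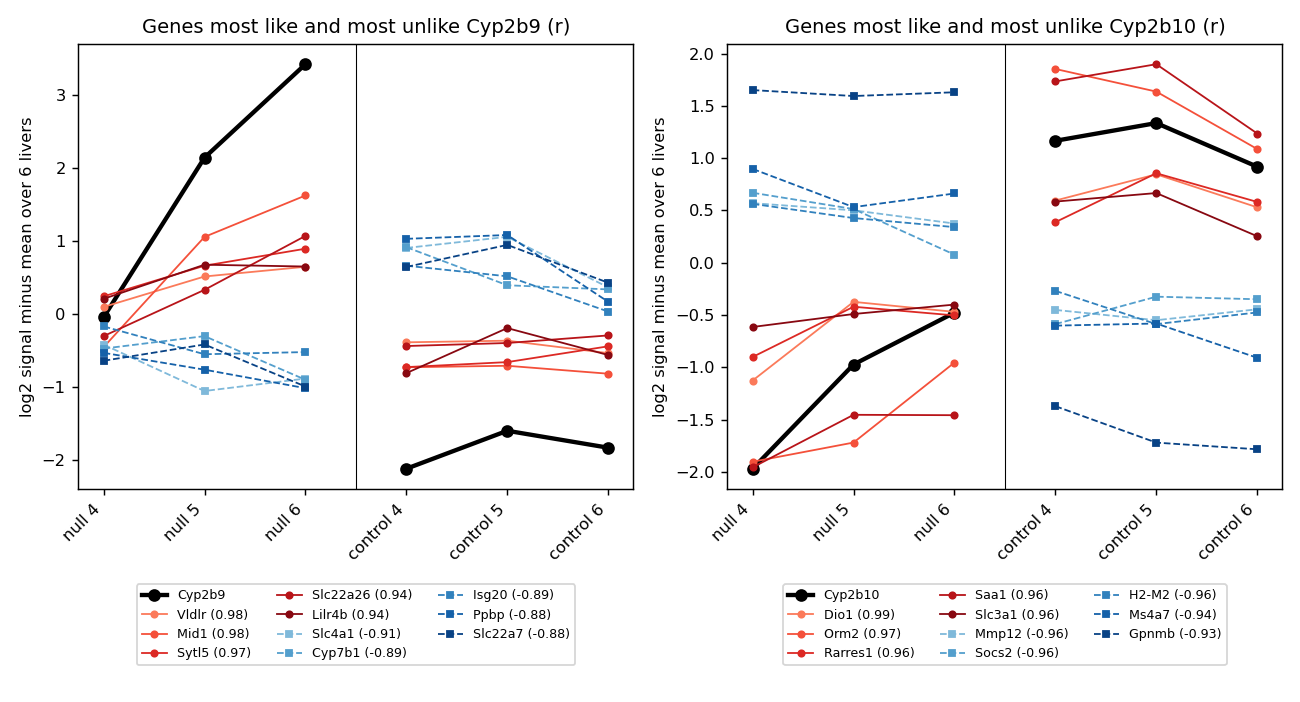
Log2 signal minus the mean over the 6 livers (vertical axis) of Cyp2b9 (left) and Cyp2b10 (right) in black, of the 5 genes with the highest r (red, circles) and of the 5 with the lowest r (blue, squares), with ARSB-null livers at the left of each panel. Lines only join the values of a gene within a group; Mid1 shares the wide spread of Cyp2b9 in null livers, and Gpnmb differs most among the genes unlike Cyp2b10.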

How the data were processed

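Biotin-labeled total RNA from hepatic tissue was hybridized by the authors to Affymetrix mouse gene arrays. The deposited values are log2 signals, 1 for each probe set and array, normalized by the authors by RMA in Partek per the labels. No software versions are stated, and scanner files were not used here. Quantile normalization makes array distributions alike, so a shift shared by most genes would not be seen. The methods name a later array version than the row identifiers carry, and probe sets were named through GEO's annotation of those identifiers.

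Signals were compared by limma 3.58.1 in R 4.3.3 (lmFit and eBayes, ARSB-null minus control, two-sided), with Benjamini-Hochberg adjustment over all 35556 probe sets and a threshold of 0.05. The test was checked on simulated data with independent noise on each array. Those data held no likeness between same-numbered mice, so the check does not cover it. A gene was read on its brightest probe set with 1 symbol. Genes named from the lists were those past the threshold and up to 4 with the smallest p, and from the correlations the 5 highest and 5 lowest. The members and lists were chosen with earlier results of these data known. Same-numbered mice deviated together (correlations 0.396, 0.159 and 0.193), and the number was used as a block in an alternative. Pairs of unlike number gave -0.325 to 0.220, so only the pair numbered 4 lay above all of them. What a shared number stands for is not stated. The labels describe separate animals, so p-values measure the spread between mice. Promoter windows were aligned with Biopython 1.88. Protein sequences were not used here.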

Additional observations from a re-analysis of the deposited data

How the results depend on the processing

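The fit over all probe sets found 2 higher and 5 lower in ARSB-null liver. One-way analysis of variance found 1 higher and 1 lower, the replicate block 1 and 3, centring the array medians 1 higher, and probe sets with a mean signal above the median 5 higher. Array weights found 14 higher and 14 lower, probe sets with 1 symbol 27 and 33, and those with the replicate block 43 and 63. Leaving out both mice numbered 4 left 1 higher and 0 lower, where the smaller number of arrays limits the test, and leaving out 1 array gave 1 higher and 3 to 6 lower. The causes of the remaining shifts were not tested. All 102 alternative differences of the 7 genes stayed within 1 SD of their value, the SD being pooled within the groups. Leaving out 1 of 3 livers cannot move a difference that far, and the block and the choice of probe sets leave it unchanged. Nothing is therefore read from the 102. Cyp2b9 ranged over 2.90 to 4.63 in 15 alternatives, with an adjusted p under 0.05 in 1, and Cyp2b10 over -2.61 to -1.85 in 15, with 2. Both extremes of Cyp2b9 came from leaving out a null mouse, 6 and 4. Cyp2b19 changed sign in 2 of 14 alternatives, and the median of CAR and PXR targets in 5 of 11, between -0.05 and 0.06. The replicate block over all probe sets changed no call of the 7 genes. Each of them has 1 probe set, so averaging probe sets gives the same value, and background correction and scan date could not be examined without scanner files. There are no detection calls, so dim genes such as Cyp2b13 have no stated background.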
